A study of Mus musculus with 4 samples.

Results

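The proteasome genes described here were the 47 genes, of 30142 named on the array, whose feature carried exactly 1 gene symbol beginning with Psma, Psmb, Psmc, Psmd, Psme or Psmg and a digit, pseudogene symbols left out. The RNA came from whole lungs of male mice of C57BL, an inbred strain. The 2-week smoke pool held lungs of 5 mice and the 4-week smoke pool those of 4 mice, all exposed to mainstream cigarette smoke (what a smoker draws in) from 10 weeks of age for 1 h per day on 5 days per week. The 2-week and the 4-week control pools held lungs of 5 mice each that breathed clean air, and mice were 12 weeks old at the end of the shorter and 14 weeks old at the end of the longer exposure. Each pool was hybridised to 1 array, so that no group had a replicate, the spread between mice cannot be seen, and the 4 arrays limit the precision of every value.

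Values are log2 of the deposited signal, and a difference is log2 smoke minus log2 control of the same duration unless stated otherwise. A difference between 2 pools has no replicate check and carries no p-value. The smoke effect is the mean difference over both durations from limma, a linear model with a spread shared across genes, with terms for smoke and duration over 2 smoke and 2 control pools. It is given ± SE with its Benjamini-Hochberg adjusted p over 18084 genes above an expression floor (mean log2 signal of 5.82), and a gene passed at 0.05 or less. That SE joins how much the gene's own smoke difference changed between durations with the spread shared across genes. The shared spread weighs more, with 5.38 prior degrees of freedom against 1 residual. Both come from changes between durations, part of which may be technical. Folds assume base 2 for the deposited linear scale, whose base is not stated. Under base e, log2 differences shrink to 0.69 of those printed.

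The proteasome is the barrel-shaped protease that degrades proteins tagged with ubiquitin. Its core has rings of alpha subunits (Psma genes), which gate the entry, around rings of beta subunits (Psmb genes), of which Psmb5, Psmb6 and Psmb7 cut the chain. The regulatory particle that docks on the core unfolds substrates with ATPases (Psmc genes) and binds and removes ubiquitin with non-ATPases (Psmd genes). Under interferon, and constitutively in many leukocytes, Psmb8, Psmb9 and Psmb10 take the places of Psmb5, Psmb6 and Psmb7 and form the immunoproteasome, which favours peptides that fit MHC class I molecules. Psme1 and Psme2 encode an interferon-induced activator that caps the core.

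Of the 47 genes, 45 encode subunits, activators or assembly chaperones of the proteasome. The symbol rule also took in Psmc3ip, which acts in meiotic recombination, and Psme3ip1, which binds the activator Psme3. No member had more than 1 feature. The activator gene Psme2 and the catalytic gene Psmb5 lay on features annotated with several symbols and were not used here, so that 4 of the 5 immunoproteasome genes were measured. The floor left 44 members, with mean log2 signals of 6.15 to 12.97. The 3 below it were Psmb11, the catalytic subunit of the thymus, at 3.45 and 3.26 in the 2-week and 4-week smoke pools against 3.43 and 3.28 in the controls; Psma8, the alpha subunit of the testis, at 5.52 and 5.61 against 5.62 and 5.58; and the assembly chaperone Psmg3 at 5.11 and 5.22 against 5.12 and 5.01.

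The median signal of the arrays was 60 in the 2-week and 61.1 in the 4-week smoke pool, against 61.7 and 58.8 in the controls. Lung markers were high in all 4 pools, with Sftpc, the surfactant protein C gene, at log2 signals of 18.85 to 18.97. The pools also differed in other tissue and in leukocytes. The summed signal of 3 heart muscle markers was 9504 and 8452 in the 2-week and 4-week smoke pools and 11514 and 15650 in the controls, and that of 5 neutrophil markers was 2389 and 1817 in the smoke pools and 2481 and 4649 in the controls.

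No proteasome gene passed the test for smoke. Of 44 members, 0 passed limma, where 265 of 18084 genes (1.47%) did. At an unadjusted p of under 0.05, 1 member was higher (Psmd8) and 0 were lower, against 6.46% of all genes higher and 5.16% lower. The lowest adjusted p of a member was 0.264. The 95% intervals of the 44 smoke effects reached from -0.46 (Psmg4) to 0.60 (Psmd8), and 43 of them included 0. The typical half-width over all genes was 0.25 log2 units, so that changes of the size seen in most members could not be told from none.

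Differences were small at each duration. No member was 1.5-fold different at 2 or 4 weeks (0 of 44, against 3.04% of all genes at 2 weeks, 4.04% at 4 weeks and 5.52% at either). At 2 weeks, 2 members were at least 1.2-fold higher in smoke (Psmb8 and Psme1, against 9.04% of all genes) and 1 was lower (Psma3, against 8.11%). At 4 weeks, 3 were higher (Psmd8, Psmb1 and Psmg1, against 12.2%) and 2 were lower (Psmg4 and Psmb2, against 11.2%). Among protein-coding genes alone, 4.01% were lower past 1.2-fold at 2 weeks and 7.77% higher at 4 weeks. No member was past 1.2-fold the same way at both durations, where 3.93% of all genes were higher and 2.49% lower. The median size of a difference was 0.084 at 2 weeks and 0.097 at 4 weeks in the members, and 0.11 and 0.14 in all genes. In protein-coding genes alone it was 0.0975 and 0.126. Psmg1 and Psmb2 were named with their values in view.

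The 4 immunoproteasome genes were higher in both smoke pools than in the control of the same duration. Their median difference was 0.24 at 2 weeks and 0.11 at 4 weeks. The median of the other 40 members was -0.0045 and 0.012, with the signs turned (0.036 and -0.044) after centring the arrays on their medians, and that of all genes was 0.0056 and -0.017. Centring left all 4 genes higher at both durations, with medians of 0.28 and 0.058. None of the 4 passed.

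Psmb8, the immunoproteasome counterpart of Psmb5 with chymotrypsin-like activity, had log2 signals of 7.45 in the 2-week and 7.62 in the 4-week smoke pool, against 7.08 and 7.54 in the controls. The 2-week control pool was the low one, and the 4-week control lay above the 2-week smoke pool. The differences were 0.37 (1.30-fold) and 0.077 (1.05-fold), and the smoke effect was 0.225 ± 0.116 (limma adjusted p = 0.554). Psme1, one of the chains of the interferon-induced activator, had 10.18 and 10.62 in the smoke pools, against 9.88 and 10.46 in the controls. Again the 2-week control was the lowest, and the groups overlapped. The differences were 0.31 (1.24-fold) and 0.15 (1.11-fold), with a smoke effect of 0.23 ± 0.105 (limma adjusted p = 0.484).

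Psmb9, the counterpart of Psmb6, had 6.64 and 6.74 in the 2-week and 4-week smoke pools, against 6.47 and 6.64 in the controls. The 2-week smoke pool and the 4-week control differed by under 0.01, so that the groups just failed to overlap. Its smoke effect was 0.14 ± 0.101 (limma adjusted p = 0.723). Psmb10, the counterpart of Psmb7 with trypsin-like activity, had 9.12 and 9.27 in the smoke pools, against 9.03 and 9.15 in the controls, and the groups overlapped. Its smoke effect was 0.11 ± 0.101 (limma adjusted p = 0.80).

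**Figure D1:**
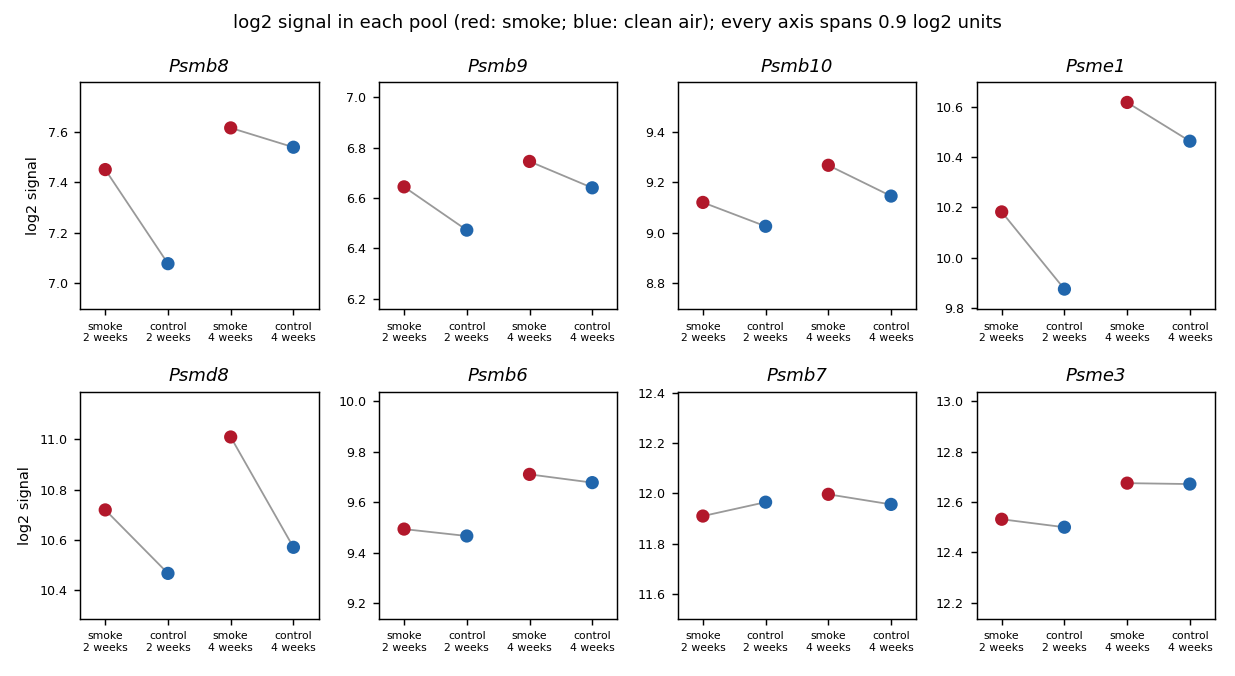
The log2 signal of 8 proteasome genes in each pool, with smoke pools in red to the left of the clean-air pool of the same duration in blue. Each panel spans the same number of log2 units. The upper row holds the 4 immunoproteasome genes, which were lowest in the 2-week control pool. The lower row holds Psmd8, which was higher in both smoke pools than in both controls, and Psmb6, Psmb7 and Psme3, whose pairs differed by at most 0.055.

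These genes differed as much or more between the unexposed pools. In the 4-week minus the 2-week control pool the difference was 0.59 for Psme1, the highest of the 44 members, 0.46 for Psmb8 (1.38-fold), 0.17 for Psmb9 and 0.12 for Psmb10. Their median was 0.31, against 0.026 for the other members and 0.0091 for all genes. In size, the median difference of the immunoproteasome genes was 0.31 between the controls, against 0.24 for smoke at 2 weeks and 0.11 at 4 weeks. For the other members the sizes were 0.079 between the controls, against 0.078 and 0.094. All genes had 0.14 between the controls, against 0.11 and 0.14. With the 2-week control pool left out, which also takes the duration term out of the fit and sets both smoke pools against the 4-week control, the 4 smoke effects lay between -0.063 (Psme1) and 0.054, and Psmb8 was at -0.0059. With the 4-week control pool left out in the same way they lay between 0.17 and 0.52.

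Between proteasome genes of 1 array, a shift of the whole array cancels. The median deviation of the immunoproteasome genes from their own means, minus that of the other members, was 0.031 in the 2-week and 0.12 in the 4-week smoke pool, against -0.23 and 0.064 in the controls. The 2-week control was low and the other 3 pools were close. For the exchangeable pairs, the log2 ratio of Psmb9 over Psmb6 was 0.14 higher in smoke at 2 weeks and 0.072 higher at 4 weeks, and between the controls, 4 weeks minus 2 weeks, it differed by -0.044. The ratio of Psmb10 over Psmb7 was 0.15 and 0.082 higher in smoke, with 0.13 between the controls.

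Leukocyte markers moved with these genes in part. Of 5 general leukocyte markers, all above the floor, 2 rose with smoke (Cd53, a tetraspanin, and Laptm5, a lysosomal protein of blood cells) and 3 did not pass. Their summed signal was 13655 and 14652 in the 2-week and 4-week smoke pools and 8753 and 8456 in the controls. The sum of 5 alveolar macrophage markers was 13883 and 20185 in the smoke pools and 7369 and 7319 in the controls, and 3 of the 5 rose. The sum of 5 T and NK cell markers was 1596 and 1611 in the smoke pools and 1246 and 1499 in the controls, and none passed. Other leukocyte lists went the other way at 4 weeks. The sum of 5 neutrophil markers was 2389 and 1817 in the smoke pools and 2481 and 4649 in the controls. That of 3 B cell markers was 1679 and 1192 in the smoke pools and 1638 and 1522 in the controls. None of either list passed. These sums weigh bright genes such as Cd53 and Mrc1 most. By member, 3 of 5 leukocyte, 4 of 5 macrophage and 3 of 5 T and NK cell markers had a higher signal in the 4-week control than the 2-week one, with median differences of 0.076, 0.26 and 0.43. Between the same controls, the neutrophil and B cell markers had median differences of 0.999 and 0.21. Their part in the result was not tested. In RNA of whole lungs, fewer cells of a type and less RNA per cell cannot be told apart.

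**Figure D2:**
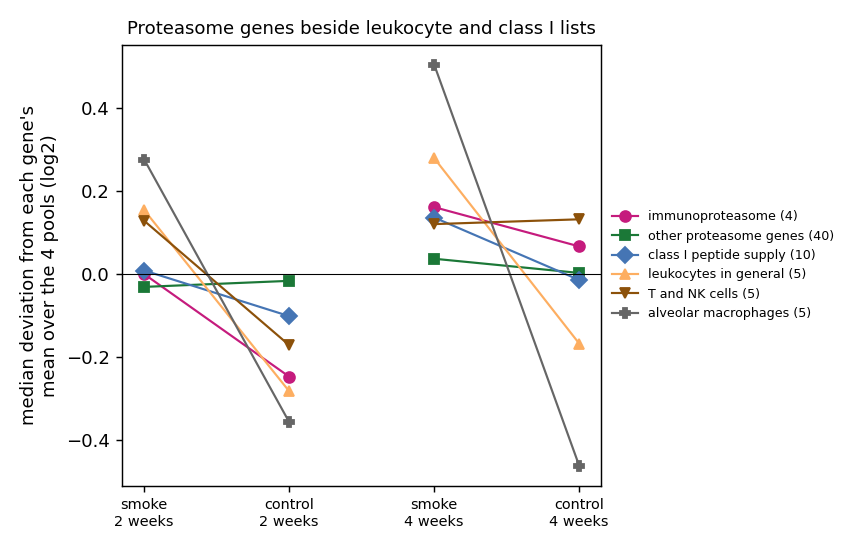
The median deviation of the genes of each list from their own mean over the 4 pools, in log2 units, with each smoke pool left of its control and the number of genes in brackets. Neutrophil and B cell markers are not drawn. The immunoproteasome genes stood at -0.25 in the 2-week control and at 0.067 in the 4-week control. The T and NK cell markers were also low in the 2-week control only (-0.17, against 0.13 in the 4-week control). The other proteasome genes stayed between -0.031 and 0.037, and the alveolar macrophage markers were low in both controls (-0.36 and -0.46).

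Interferon acts on immunoproteasome genes through known elements, and the promoters of 3 of the 4 measured are shown, together with that of Psmd8, the member with the largest smoke effect. The sequences are from RefSeq (GRCm38.p6), as the 250 bases before the gene's start, 5′ to 3′ on the gene's strand. Capitals mark matches to the interferon regulatory factor element (GAAA, any 2 bases, GAAA), the interferon gamma-activated site TTCNNNGAA or the core of the antioxidant response element TGANNNNGC, which NFE2-like factors bind. All were searched on both strands, and no matches to these 3 overlapped in the sequences shown. The capitals in Psmb8 mark a gamma-activated site, while those in Psmb9 mark the antioxidant response core and not an interferon element. Psmb10 had no match to these 3 in its 250 bases before the start, as for Psme1 and Psmd8, and its sequence is not printed.
Psmb8 (chr17:34197945-34198194, + strand): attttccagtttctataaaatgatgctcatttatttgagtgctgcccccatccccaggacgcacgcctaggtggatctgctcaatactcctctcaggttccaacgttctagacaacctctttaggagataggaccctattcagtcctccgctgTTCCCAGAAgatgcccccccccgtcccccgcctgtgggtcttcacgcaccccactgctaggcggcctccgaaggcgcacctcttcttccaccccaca
Psmb9 (chr17:34187331-34187580, - strand): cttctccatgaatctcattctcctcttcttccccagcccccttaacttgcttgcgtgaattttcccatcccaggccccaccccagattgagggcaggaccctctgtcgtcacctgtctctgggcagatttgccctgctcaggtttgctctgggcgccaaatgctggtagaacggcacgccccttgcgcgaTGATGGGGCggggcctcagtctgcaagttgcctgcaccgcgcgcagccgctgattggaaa
Psme1 (chr14:55578244-55578493, + strand): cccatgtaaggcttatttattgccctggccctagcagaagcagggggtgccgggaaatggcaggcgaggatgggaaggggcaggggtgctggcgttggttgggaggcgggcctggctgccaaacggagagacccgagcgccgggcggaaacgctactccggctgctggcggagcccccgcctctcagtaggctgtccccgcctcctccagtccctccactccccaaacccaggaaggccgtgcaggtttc
Psmd8 (chr7:29180674-29180923, - strand): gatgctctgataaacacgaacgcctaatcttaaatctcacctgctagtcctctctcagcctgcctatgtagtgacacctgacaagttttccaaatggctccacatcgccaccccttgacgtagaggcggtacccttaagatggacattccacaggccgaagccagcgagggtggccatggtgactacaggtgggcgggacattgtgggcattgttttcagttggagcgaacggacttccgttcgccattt

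In Psme1 the interferon regulatory factor element lay just past the start, on the opposite strand, beginning 10 bases into the transcript, and its neighbourhood is printed for that reason.
Psme1 element (chr14:55578493-55578522, + strand): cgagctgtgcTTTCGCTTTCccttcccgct
Psmb9 and Tap1, a subunit of the transporter that carries proteasomal peptides to MHC class I molecules, start in opposite directions from the same stretch, and their windows of 300 bases shared 275 bases. Windows of 250 bases before to 50 after the start were found for 39 of the 47 members. The interferon regulatory factor element was in 5 of these 39 genes (12.8%; of the immunoproteasome genes only Psme1, of 4) and in 3.44% of all 32851 windows of the table. The gamma-activated site was in 3 members (7.69%), of the immunoproteasome genes only Psmb8, and in 8.3% of all windows. The antioxidant response core was in 23 members (59%), of the immunoproteasome genes Psmb8 and Psmb9, and in 41.3% of all windows. Psmb8 and Psmd8 had a match to the last within the 50 bases after the start. A match describes letters only. The 39 members had 42 windows, and a member with several starts was counted once if any window matched. The share over all was counted per window, so the shares are not in the same unit.

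The core subunits outside the immunoproteasome gave medians near 0. The 6 constitutive beta genes measured had a median difference of -0.014 at 2 weeks and 0.039 at 4 weeks (0.027 and -0.017 after centring). Psmb1, a structural beta subunit, had 11.72 and 11.93 in the 2-week and 4-week smoke pools, against 11.61 and 11.59 in the controls. Both smoke pools lay above both controls, and the smoke effect was 0.23 ± 0.111 (limma adjusted p = 0.527). The catalytic genes barely differed. Psmb6 had 9.49 and 9.71 in the smoke pools, against 9.47 and 9.68 in the controls, a smoke effect of 0.03 ± 0.1 (95% interval -0.21 to 0.27). Psmb7 had 11.91 and 12.00 in the smoke pools, against 11.97 and 11.96 in the controls (95% interval -0.25 to 0.24). Psmb3 had the lowest mean difference of the ring, -0.023.

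Psmb2, another structural beta gene, had 8.44 in the 2-week and 8.50 in the 4-week smoke pool, against 8.20 and 8.77 in the controls. The smoke pools lay between the controls, which differed by 0.57 (1.48-fold), so that its difference was 0.24 at 2 weeks and -0.26 at 4 weeks. The ATPase gene Psmc4, also named with its values in view, had the same order, with 9.76 and 9.86 in the smoke pools, against 9.62 and 10.05 in the controls.

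Of the 7 alpha genes above the floor, 3 were higher and 4 lower at 2 weeks, and 4 were higher and 3 lower at 4 weeks, with medians of -0.014 and 0.0047 (0.027 and -0.051 after centring). Psma5 had the highest mean difference (0.064). Psma3 had the lowest, with 12.97 and 12.82 in the 2-week and 4-week smoke pools, against 13.26 and 12.82 in the controls. Here the 2-week control was the high pool and the other 3 were close. Its smoke effect was -0.14 ± 0.116 (limma adjusted p = 0.764).

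In the regulatory particle, 5 of the 6 ATPase genes were lower in smoke at 2 weeks and 5 at 4 weeks. Of the 6, 4 were lower at both durations, where 29.3% of all genes were. The medians of the ATPase genes were -0.086 and -0.080, and stayed below 0 under 3 other scalings. After centring, 4 of the 6 were lower at 2 weeks. At 4 weeks, 3 of the 6 were lower after cyclic loess and 4 after quantile normalisation. Psmc1 had 10.93 and 10.87 in the 2-week and 4-week smoke pools, against 11.16 and 10.99 in the controls. Both smoke pools lay below both controls, and the smoke effect was -0.18 ± 0.103 (limma adjusted p = 0.624). Psmc3 had the highest mean difference of the ATPases, 0.012.

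The 11 non-ATPase genes spread both ways, with medians of -0.016 and 0.045 (0.024 and -0.011 after centring). Psmd8, a lid subunit of the particle, had the largest smoke effect of all members. It had 10.72 and 11.01 in the 2-week and 4-week smoke pools, against 10.47 and 10.57 in the controls, and both smoke pools lay above both controls. The differences were 0.25 (1.19-fold) and 0.44 (1.35-fold), and the smoke effect was 0.34 ± 0.107 (limma adjusted p = 0.264). Effects of this size or more, in either direction, were seen in 7.46% of all genes. When only protein-coding genes were fitted, its adjusted p was 0.051. Psmd7, another lid subunit, was at the other end, with 12.41 and 12.46 in the smoke pools, against 12.57 and 12.63 in the controls, and both smoke pools lay below both controls. Its differences were -0.16 and -0.17, and the smoke effect was -0.17 ± 0.1 (limma adjusted p = 0.648).

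**Figure D3:**
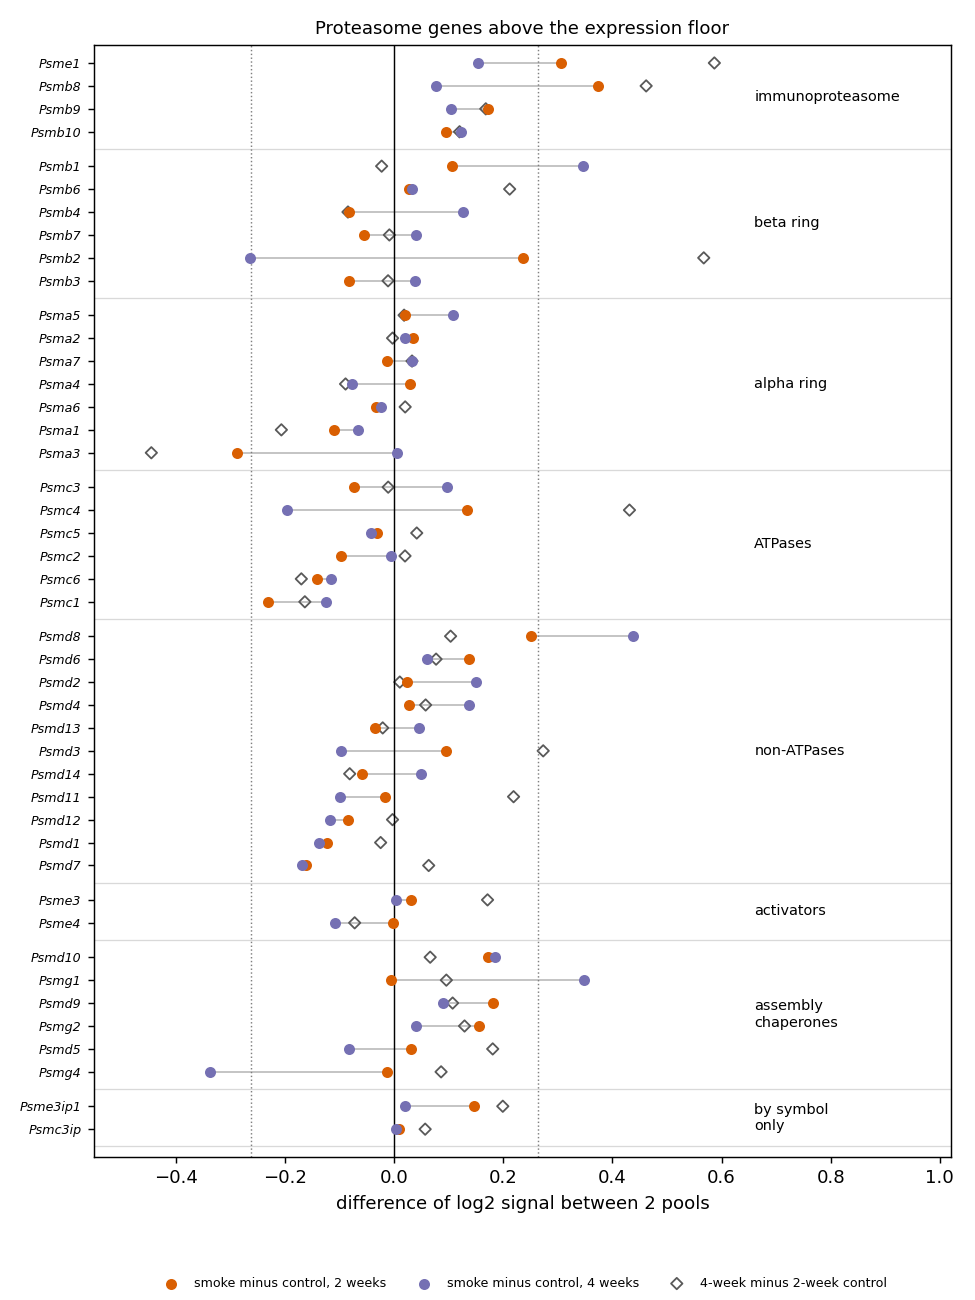
Differences of log2 signal for the 44 proteasome genes above the floor, grouped by role, as smoke minus control at 2 weeks (orange) and 4 weeks (purple) and as 4-week minus 2-week control (open diamonds), with dotted lines at 1.2-fold. For Psme1, Psmb8, Psmb2, Psmc4 and Psma3 the diamond lies farther from 0 than both smoke differences, and Psmd8 has the highest mean smoke difference.

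The assembly chaperones build the rings and the base of the regulatory particle and then leave. The 6 above the floor had medians of 0.094 and 0.065 (0.13 and 0.0095 after centring, with 3 higher and 3 lower at 4 weeks). Psmd10, a chaperone of the base that is also known as gankyrin, had 9.54 and 9.62 in the 2-week and 4-week smoke pools, against 9.37 and 9.44 in the controls. Both smoke pools lay above both controls by similar steps of 0.17 and 0.18, with a smoke effect of 0.18 ± 0.1 (limma adjusted p = 0.606). Psmg1 had 8.34 and 8.79 in the smoke pools, against 8.35 and 8.44 in the controls, and Psmg4 had 6.73 and 6.49, against 6.74 and 6.83. For both chaperones of ring assembly the 4-week smoke pool stood apart, high for Psmg1 and low for Psmg4, which also lay near the floor. The smoke effect of Psmg4 was -0.18 ± 0.119 (limma adjusted p = 0.695).

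The activators that are not induced by interferon stayed close to 0. Psme3, the nuclear activator, had 12.53 and 12.68 in the 2-week and 4-week smoke pools, against 12.50 and 12.67 in the controls, and a smoke effect of 0.018 ± 0.101 (95% interval -0.23 to 0.26). Psme4, which is known for histone degradation, had 11.07 and 10.90 in the smoke pools, against 11.08 and 11.00 in the controls, and a smoke effect of -0.055 ± 0.103. The log2 ratio of Psme1 over Psme3 was 0.27 and 0.15 higher in smoke, with 0.42 for the 4-week minus the 2-week control. Psmc3ip and Psme3ip1 had smoke effects of 0.0061 and 0.083.

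Across all members, both smoke pools lay above both controls in 10 of 44 genes (15.7% of all genes), which were Psmd8, Psmb1, Psmd10, Psmb9, Psmd9, Psmd6, Psmg2, Psmd2, Psma5 and Psma2. Both lay below both controls in 7 of 44 (16.8% of all genes), which were Psmc1, Psmg4, Psmd7, Psmd1, Psmd12, Psmc5 and Psma6. The first count was 5 after centring the arrays on their medians. At both durations 18 members were higher and 12 lower, and 14 differed in sign, where 27.2% of all genes were higher at both and 29.3% lower at both. Between the controls, 5 members were at least 1.2-fold higher at 4 weeks (Psme1, Psmb2, Psmb8, Psmc4 and Psmd3, against 12.4% of all genes) and 1 was lower (Psma3, against 11%). Genes in these counts that are not described above were named for their order of pools, after it was seen.

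**Figure D4:**
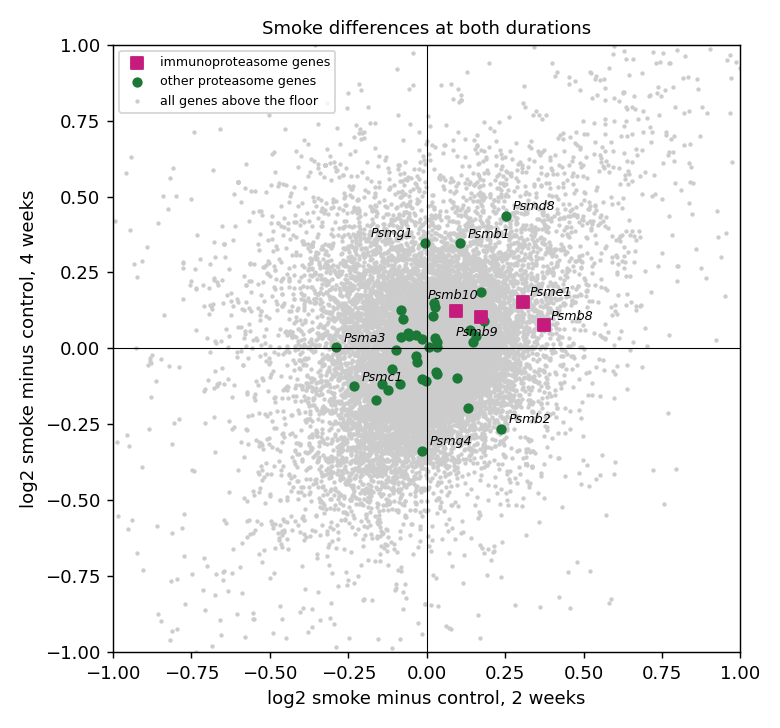
Smoke minus control in log2 units at 2 weeks (horizontal) and 4 weeks (vertical) for the immunoproteasome genes (squares), the other proteasome genes (green) and all genes above the floor (grey; 212 lie outside the axes). The 4 squares lie right of and above 0, and the green points lie on both sides of 0 on each axis.

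Genes that act with the proteasome showed no passing gene either. Of 8 measured factors outside the symbol rule, 0 passed, and medians were -0.019 and -0.035. Pomp, a maturation factor of the core that interferon induces, had 11.42 and 11.52 in the 2-week and 4-week smoke pools, against 11.07 and 11.53 in the controls. As for Psmb8 and Psme1, the 2-week control was the low pool. Akirin2, which carries proteasomes into the nucleus, had the lowest mean difference (-0.20 ± 0.108). Of 4 measured regulators, 0 passed. Irf1, an interferon-induced factor that activates immunoproteasome genes, had a smoke effect of 0.17 ± 0.102 (limma adjusted p = 0.633), which was -0.071 when its features were averaged. Nfe2l1, which restores proteasome genes when the proteasome is inhibited, was at -0.04 ± 0.108 and was named with its value in view. Ngly1, the enzyme that activates Nfe2l1 by removing its sugars, was at -0.057 ± 0.103.

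Of 8 measured ubiquitin and shuttle factors, 0 passed, with medians of -0.0002 and -0.048 and a range of mean differences from -0.19 (Zfand5, which stimulates the proteasome) to 0.069 (the shuttle Ubqln4). Of 10 genes of class I peptide supply, 0 passed and 6 were higher at both durations, where 27.2% of all genes were. The medians of this list were 0.14 and 0.11, with 0.085 for the 4-week minus the 2-week control. Tap1, the neighbour of Psmb9, had 9.20 and 9.26 in the 2-week and 4-week smoke pools, against 8.83 and 9.08 in the controls, with both smoke pools above both controls and a smoke effect of 0.28 ± 0.107 (limma adjusted p = 0.384). Canx, a chaperone of class I folding, had the lowest mean difference (-0.031).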

How the data were processed

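Biotin-labelled RNA of 4 lung pools was hybridised to 1 array each, per the labels' protocols and the design text. The authors deposited linear intensities made by RMA, for which the submitters' processing notes name Affymetrix Expression Console 1.4.1. RMA makes the arrays' distributions alike and would remove a change common to all genes of a pool. Build and filters: not given in the sources used here. Between 541 and 581 features per array exceeded 65535, the largest 16-bit value, and the base of the linear values is unknown. Here log2 was taken. Of 65956 features, 30604 had 1 symbol, 2146 several and 33206 were not listed, and 0 columns belonged to other samples. Symbols were updated through Entrez IDs (22818 features matched a RefSeq table of GRCm38.p6). The feature with the highest mean stood for a gene, and genes above the 40th percentile of mean signal were kept (18084, of them 12581 protein coding).

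The smoke effect was tested with limma 3.58.1 in R 4.3.3 (lmFit and eBayes, terms for smoke and duration, all 4 arrays, 1 residual degree of freedom, 5.38 prior degrees of freedom) and checked on simulated data. There 0.8% of 1.2-fold, 31.2% of 1.5-fold and 95.6% of 2-fold effects were recovered, so effects as small as those of the members would mostly be missed. Pools were grouped by their titles. Differences between 2 pools carry no test. Alternatives were 3 scalings, 2 floors, averaged features, protein-coding genes only, no duration term, another variance prior and leaving out each pool.

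Named were the immunoproteasome genes and their counterparts, the other activators, the tissue-restricted members, the highest and lowest mean difference of each role group and list, and any member passing limma or past 1.2-fold the same way at both durations; other names are marked. Members and lists were chosen with earlier results of these data known. Listed genes with no feature of 1 symbol, such as Nlrc5 and Adrm1, were not analysed here.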

Additional observations from a re-analysis of the deposited data

Results flagged for a closer look

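In 12 of the named genes above the floor the smoke difference had opposite signs at 2 and 4 weeks; with 1 pool per group this was not tested. The 4-week minus the 2-week smoke difference, in log2 units, was -0.50 for Psmb2, -0.33 for Psmc4, 0.29 for Psma3, 0.17 for Psmc3, 0.12 for Psmb3, 0.095 for Psmb7 and -0.19 for Psmd3. In the assembly chaperone Psmg1 it was 0.35. Among genes that act with the proteasome it was -0.37 for Pomp, -0.20 for Ubqln4, -0.21 for Nfe2l1 and -0.12 for Ngly1. For Psmb2, Psmc4, Psmd3, Pomp and Ubqln4 the 2-week control pool was the lowest of the 4, and for Psma3 it was the highest.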

How the results depend on the processing

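No paired analysis was possible because each group was 1 pool and the labels number no replicates; the limma fit matched pools by duration only, through its duration term. In limma, 0 members passed under every alternative run (lowest adjusted p 0.051, Psmd8, protein-coding genes only). Over all genes, 265 passed; the count was 585 after centring array medians, 72 after cyclic loess, 95 after quantile normalisation, 882 when only protein-coding genes were fitted, 0 without the duration term (as there, pools left out were fitted without duration) and 0 to 34 with 1 pool left out. The members with both smoke pools above both controls numbered 10, but 5 after centring array medians and 6 after quantile normalisation. The immunoproteasome medians stayed positive and within 1.5 times under every scaling, floor and feature choice run, except for 0.058 at 4 weeks after centring. With the higher floor Psmb8 and Psmb9 fell away, so those medians rest on Psme1 and Psmb10 alone. Averaging features or dropping the floor could not change these medians, since each of the 4 genes had 1 feature and lay above the floor. The median of the other members after centring, cyclic loess and quantile normalisation was 0.036, 0.019 and 0.023 at 2 weeks, -0.044, 0.056 and 0.049 at 4 weeks (0.020 without a floor and with a higher one), and 0.096, 0.083 and 0.061 for the 4-week minus the 2-week control.

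Of 425 single-gene effects recomputed for 33 genes, 387 kept their sign and stayed short of the threshold and 38 changed sign. The floors, the protein-coding fit, the missing duration term and the other prior could not change an effect in this balanced design. Averaging could change only genes with several features. Signs kept under these settings therefore say nothing about stability. With 1 pool left out, the lowest and highest effect lay on both sides of 0 for 20 genes. The lowest came without the 2-week control and the highest without the 4-week control for Psme1 (-0.063 to 0.52), Psmb8 (-0.0059 to 0.46), Psme3 (-0.068 to 0.10), Psme3ip1 (-0.016 to 0.18), Psmc3ip (-0.022 to 0.035), Psmb2 (-0.30 to 0.27), Psmc4 (-0.25 to 0.18), Psmd3 (-0.14 to 0.14), Nfe2l1 (-0.11 to 0.027), Pomp (-0.067 to 0.40) and Ubqln4 (-0.070 to 0.21), and the reverse for Psma3 (-0.36 to 0.081). The lowest came without the 4-week smoke pool and the highest without the 2-week smoke pool for Psmb6 (-0.078 to 0.14), Psmb3 (-0.077 to 0.032), Psmb7 (-0.051 to 0.036), Psmc3 (-0.069 to 0.092) and Psmg1 (-0.054 to 0.40), and the reverse for Psme4 (-0.14 to 0.034), Ngly1 (-0.14 to 0.023) and Canx (-0.068 to 0.0058). Cyclic loess turned Psmb7 (0.028), Psmb2 (0.013), Psmc4 (0.0057), Psmd3 (0.021) and Psmc3ip (-0.00090), quantile normalisation Psmb7 (0.017), Psmb2 (0.018), Psmd3 (0.010) and Psmc3ip (-0.0023), centring Psmc3ip (-0.0013), and averaging features Irf1 (-0.071). Beyond the pools and features left out or averaged, the cause was not tested. No background value per feature was used, so the depth of dim members such as Psmb9 and Psmg4 is unknown.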
